A study of Mus musculus with 6 samples.

Results

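Ramp3, Fzd4, Efnb2 and Tmem273 are 4 genes for membrane proteins that differed about 2-fold or more between splenic regulatory T cells (Treg) recovered beside wild-type or beside HP1a-deficient conventional CD4 T cells (Tconv). They were chosen by that group difference in these libraries and by the place of their products in the cell membrane, so their group differences are given as a description, with no test. They are 4 of the 29199 genes in the counts table, and all 4 were among the 18321 genes that passed the filter on low counts.

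Total RNA was sequenced from 6 libraries, 3 of Treg with WT Tconv and 3 of Treg with HP1a KO Tconv. The Treg of every library were WT, taken from B6 Foxp3-Thy1.1 mice and expanded in culture with CD3/CD28 beads, IL-2 and TGFb before transfer. Every host was a lethally irradiated B6 mouse, C57BL/6J or CD45.1+ B6 by the study's methods, given bone marrow of C57BL/6J mixed with that of B6D2F1 mice, naive CD4 Tconv and these Treg, and the Treg were sorted from the spleen 3 weeks after the graft. The only labelled difference was the genotype of the Tconv, which were WT or lacked HP1a, a heterochromatin protein, after excision of a floxed allele by a CMV-cre transgene. The deletion was thus in the Tconv donors and not in the cells sequenced, the mutant line was kept on a mixed 129/Sv and C57BL/6 background, and by the study's methods wild-type and mutant littermates were young adults matched for sex. Nothing in the labels says whether replicates came from separate hosts, so any p-value measures the spread between these libraries, which may in part be technical.

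Ephrin-B2, the product of Efnb2, is a ligand anchored in the membrane that binds Eph receptor tyrosine kinases, above all EphB4, on a touching cell and can also signal back into the cell that carries it. Frizzled-4, the product of Fzd4, is a receptor for Wnt proteins and for Norrin that acts with the co-receptors Lrp5 and Lrp6 and, for Norrin, with the tetraspanin Tspan12. Ramp3 is a single-pass accessory protein that escorts G protein-coupled receptors to the surface and, bound to the calcitonin receptor-like receptor (Calcrl), makes a receptor for adrenomedullin, whereas Ramp1 with Calcrl makes the receptor for calcitonin gene-related peptide (CGRP). Ephrin-B2, Frizzled-4 and the adrenomedullin receptors are best known from blood vessels. Tmem273 encodes a transmembrane protein of which no role is given here.

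The start regions of the 4 genes are shown since the members shared a contrast and can be compared in base composition and in short motifs. Each line gives, 5′ to 3′ on the strand of the gene, the bases before the start site that lie outside exons of protein-coding genes, from RefSeq promoter sequences of GRCm38.p6, each of which matched 1 place in GRCm39. Capitals mark the motifs found, the GC box letters GGGCGG, read on the reverse strand as CCGCCC, and the TATA box letters TATAAA, read on the reverse strand as TTTATA. On GRCm39 the printed stretches are chr8:8711250-8711492 on the minus strand for Efnb2, chr7:89053431-89053562 on the plus strand for Fzd4, chr11:6608283-6608510 on the plus strand for Ramp3 and chr14:32507670-32507919 on the plus strand for Tmem273.
Efnb2: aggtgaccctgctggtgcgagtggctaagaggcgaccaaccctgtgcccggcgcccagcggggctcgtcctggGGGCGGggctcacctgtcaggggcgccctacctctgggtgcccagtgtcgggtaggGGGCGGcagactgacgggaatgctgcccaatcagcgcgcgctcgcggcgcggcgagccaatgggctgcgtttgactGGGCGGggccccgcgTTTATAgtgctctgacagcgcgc
Fzd4: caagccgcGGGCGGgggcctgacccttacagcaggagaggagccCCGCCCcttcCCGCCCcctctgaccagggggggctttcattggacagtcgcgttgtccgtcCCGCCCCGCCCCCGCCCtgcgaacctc
Ramp3: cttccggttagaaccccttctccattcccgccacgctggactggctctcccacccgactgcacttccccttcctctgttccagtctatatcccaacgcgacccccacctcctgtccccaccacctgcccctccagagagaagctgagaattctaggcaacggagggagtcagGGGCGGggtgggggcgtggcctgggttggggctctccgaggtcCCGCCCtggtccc
Tmem273: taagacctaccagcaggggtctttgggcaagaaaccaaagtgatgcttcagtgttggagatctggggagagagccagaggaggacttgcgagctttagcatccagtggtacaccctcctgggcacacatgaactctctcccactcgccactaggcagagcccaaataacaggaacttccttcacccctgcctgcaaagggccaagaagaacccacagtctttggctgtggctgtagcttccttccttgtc

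Over the full 250 bases before the RefSeq start site, GC content was 72.0% for Efnb2, 72.8% for Fzd4 and 65.2% for Ramp3, against 54.0% for Tmem273 and a median of 52.4% over 32851 promoters. The number of CpG dinucleotides in these windows was 27 for Efnb2, 25 for Fzd4, 13 for Ramp3 and 2 for Tmem273, with a median of 6 over all promoters. Efnb2, Fzd4 and Ramp3 thus had GC-rich, CpG-rich start regions, and Tmem273 did not. With 4 genes selected on the contrast, no link to its direction is read from this. GGGCGG, the letters of a GC box, matched 7 times for Fzd4, some matches adjoining each other, 3 times for Efnb2 and 3 times for Ramp3. The printed stretches show 6 of the matches for Fzd4 and 2 of those for Ramp3, as the rest lie outside them. Of all promoters, 32.7% held at least 1 match. TATAAA matched once, on the reverse strand 30 bases before the start site of Efnb2, and 12.4% of all promoters held it. Further motifs were searched on both strands and had no match in these 4 windows: the cyclic AMP element TGACGTCA, held by 1.55% of all promoters, the Runx core TGTGGT by 14.0%, the E-box CACGTG by 6.02%, the Ets-type letters TTCCTCTT by 2.95%, the forkhead letters GTAAACA by 3.17%, the Rbpj letters TGTGGGAA by 1.46% and the Tcf and Lef letters CTTTGAT by 3.21%. The reverse-strand neighbour of Fzd4, Tmem135, begins 133 bases from it, which is why the stretch printed for Fzd4 is short.

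The libraries held between 87421755 and 119078882 estimated counts. Levels are given as CPM, the count per 1000000 of a library total scaled by TMM, a normalisation that sets most genes level between libraries, and levels of different genes are compared as TPM, which also divides by exon length. The labelled cell type was borne out by its markers, with Foxp3 between 154 and 252 CPM and Cd4 between 688 and 843 CPM. The 7 T cell and Treg markers summed to 4416 to 5119 CPM beside WT Tconv and 4165 to 4501 CPM beside HP1a KO Tconv. Ctla4, among them, was at 1112 to 1349 CPM and 798 to 1028 CPM, without overlap. Both it and Ikzf2, at 1469 CPM, were lowest in replicate 3 beside HP1a KO Tconv, as were Ramp3 and Fzd4. Foxp3, Il2ra and Cd4, at 252, 199 and 843 CPM, were highest in that same library, and Cd3e and Cd3d were at neither end there. The part of these markers in the values of Ramp3 and Fzd4 was not tested. Markers of other cells stood out in 1 library, replicate 3 beside WT Tconv, with 6328 CPM of red cell and 1879 CPM of neutrophil transcripts, where the other 5 libraries had at most 732 and 228 CPM. Macrophage or monocyte markers summed to 188 CPM there and to at most 51.0 CPM elsewhere. The sum of 6 dendritic cell markers was 12.3 to 21.5 CPM beside WT Tconv and 7.86 to 15.4 CPM beside HP1a KO Tconv, and nearly all of it was 1 gene, Zbtb46, at 7.01 to 20.2 CPM and lowest in replicate 3 beside HP1a KO Tconv, while the other 5 markers reached at most 1.24 CPM each. Since vessels also make 3 of the 4 products, 10 endothelial markers were read, whose sum was 68.5 to 77.5 CPM beside WT Tconv and 79.8 to 89.2 CPM beside HP1a KO Tconv. Nearly all of it was Pecam1, which T cells also express, at 67.3 to 76.6 CPM and 78.9 to 88.2 CPM, higher beside HP1a KO Tconv without overlap. The other 9 summed to 0.922 to 1.21 CPM in Treg with WT Tconv and 0.921 to 1.14 CPM in Treg with HP1a KO Tconv. Of these 9, Egfl7 reached 69 counts, Cdh5 55 and Esam 37, while Cldn5 reached at most 1 count, Tie1 at most 2 and Tek and Emcn at most 3 counts in any library. In bulk RNA, fewer cells that carry a transcript and less of it per cell cannot be told apart.

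To describe the 4 genes, the level in each library was examined first. Efnb2 (ENSMUSG00000001300) lies on chromosome 8 of GRCm39 from 8667226 to 8711249 on the minus strand, with 7243 bases of annotated exon. Its level was 5.10, 3.47 and 4.81 CPM in replicates 1, 2 and 3 of Treg with WT Tconv and 2.65, 1.31 and 1.89 CPM in those of Treg with HP1a KO Tconv. All 3 libraries beside HP1a KO Tconv were below all 3 beside WT Tconv. The narrowest gap was between replicate 2 beside WT Tconv and replicate 1 beside HP1a KO Tconv, a ratio of 1.31. The group means were 4.46 CPM ± 0.870 (SD, n = 3) and 1.95 CPM ± 0.672 (SD, n = 3) (log2 fold change -1.19, SE 0.275). The counts behind these levels ran from 131 to 563.

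Fzd4 (ENSMUSG00000049791) lies on chromosome 7 from 89053563 to 89062342 on the plus strand, with 6852 exon bases. Its level was 3.60, 2.75 and 3.27 CPM in the libraries beside WT Tconv and 1.33, 1.62 and 0.691 CPM in those beside HP1a KO Tconv, from 61 to 383 counts. The groups did not overlap, and replicate 3 beside HP1a KO Tconv was the lowest of the 6 libraries. Mean levels were 3.21 CPM ± 0.427 (SD, n = 3) and 1.21 CPM ± 0.476 (SD, n = 3). The difference on the log2 scale, -1.40 (SE 0.304), was the farthest from 0 of the 4 genes.

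Ramp3 (ENSMUSG00000041046) lies on chromosome 11 from 6608511 to 6627475 on the plus strand, with 1390 exon bases, and was the best covered of the 4 genes in Treg with WT Tconv. Its level was 16.7, 13.1 and 13.8 CPM beside WT Tconv and 8.12, 7.93 and 3.44 CPM beside HP1a KO Tconv, from 304 to 1619 counts. The 3 libraries beside HP1a KO Tconv were again all lower, and replicate 3 stood below the other two, which were close to each other. The means of 14.5 CPM ± 1.93 (SD, n = 3) and 6.50 CPM ± 2.65 (SD, n = 3) differed by -1.16 on the log2 scale (SE 0.338). Without replicate 3 of Treg with HP1a KO Tconv it was -0.86, short of 2-fold.

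Tmem273 (ENSMUSG00000041707) lies on chromosome 14 from 32507920 to 32540635 on the plus strand, with 2298 exon bases, and was the 1 member that was higher beside HP1a KO Tconv. Its level was 3.44, 6.46 and 4.85 CPM in replicates 1, 2 and 3 of Treg with WT Tconv and 12.3, 7.49 and 11.6 CPM in those of Treg with HP1a KO Tconv, from 331 to 1116 counts. The groups did not overlap, but replicate 2 of each came within a ratio of 1.16 of the other. The means were 4.92 CPM ± 1.51 (SD, n = 3) and 10.5 CPM ± 2.60 (SD, n = 3), which differed by 1.09 on the log2 scale (SE 0.278). Its fold of 2.13 was the nearest of the 4 to the 2-fold line, after 2.24 for Ramp3, 2.29 for Efnb2 and 2.64 for Fzd4. Among the genes of the lists described below, those next to that line were Tmem171 and Hes1 just beyond it, with log2 fold changes of -1.05 and -1.02, and Tmem253 and Tmem108 just short of it, at -0.97 and 0.96.

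**Figure D1:**
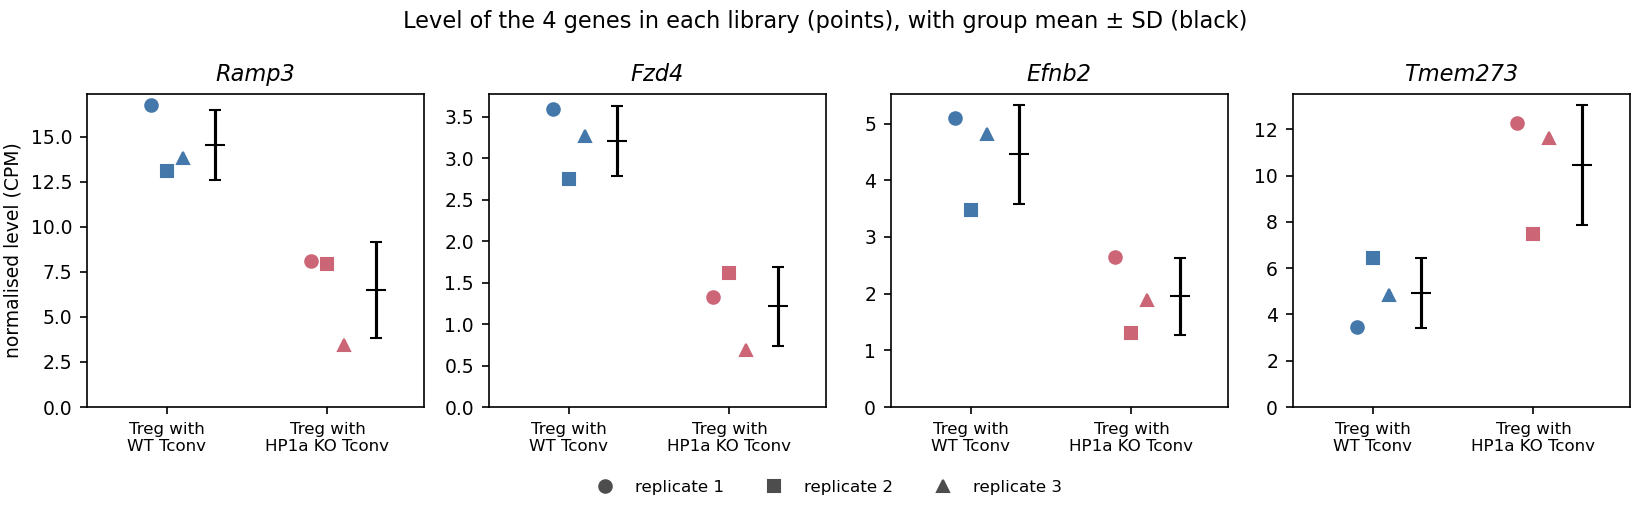
Normalised level (CPM, linear axes from 0, 1 panel per gene) of Ramp3, Fzd4, Efnb2 and Tmem273 in each library, with group mean ± SD of 3 libraries in black and a marker shape per replicate number. In each panel the 3 libraries of Treg with WT Tconv lie wholly to one side of the 3 of Treg with HP1a KO Tconv, by ratios as narrow as 1.16 for Tmem273 and as wide as 1.70 for Fzd4.

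These differences were set against the whole table, with nothing read from the counts of members, since the members were selected on this contrast. Groups did not overlap and were lower beside HP1a KO Tconv for 11.6% of all genes tested and for 3 of the 4 members, and were higher without overlap for 11.5% of all genes and for 1 member. A log2 fold change under -1 was found for 3.53% of genes tested and one over 1 for 0.906%. Both a change of this size and groups that did not overlap were found for 156 genes in the lower and 83 genes in the higher direction. With edgeR's quasi-likelihood test and Benjamini-Hochberg correction 0% of genes had an adjusted p under 0.05 and 14.5% had an unadjusted p under 0.05. DESeq2 gave an adjusted p under 0.05 to 526 of the 12097 genes it adjusted, or 4.35%. No p-value is given for the members. Left out of the fit, replicate 3 beside WT Tconv, the library with the red cell and neutrophil transcripts, moved the log2 fold changes to -1.20 for Ramp3, -1.38 for Fzd4, -1.14 for Efnb2 and 1.08 for Tmem273.

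The spread between replicates was compared with the part of it that counting error gives. The coefficient of variation of CPM in Treg with HP1a KO Tconv was 40.7% for Ramp3, 39.2% for Fzd4, 34.4% for Efnb2 and 24.9% for Tmem273, where counting alone would give 4.04%, 9.34%, 7.46% and 3.22%. In the group beside WT Tconv it was 13.3% for Ramp3, 13.3% for Fzd4, 19.5% for Efnb2 and 30.7% for Tmem273, with counting parts of 2.59%, 5.49%, 4.65% and 4.44%. The wide spread of Ramp3 and Fzd4 beside HP1a KO Tconv came from replicate 3, at 3.44 and 0.691 CPM, since replicates 1 and 2 were at 8.12 and 7.93 CPM for Ramp3 and at 1.33 and 1.62 CPM for Fzd4.

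Per length, the 4 genes sat at different heights. Beside WT Tconv the order of mean levels was Ramp3 at 42.1 TPM ± 6.39, Tmem273 at 8.57 TPM ± 2.58, Efnb2 at 2.47 TPM ± 0.497 and Fzd4 at 1.88 TPM ± 0.271 (SD, n = 3 each), and the libraries of the last pair overlapped. Beside HP1a KO Tconv, Ramp3 at 19.3 TPM ± 8.02 and Tmem273 at 18.7 TPM ± 4.34 overlapped, as did Efnb2 at 1.11 TPM ± 0.367 and Fzd4 at 0.735 TPM ± 0.299. Averaged over the 6 libraries, the level of Ramp3 was at percentile 72.7 of all genes tested, Tmem273 at 56.3, Efnb2 at 25.5 and Fzd4 at 21.9. Ramp3 and Tmem273 were therefore transcripts above the middle of the range in these Treg, and Efnb2 and Fzd4 were in the lower part of it.

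**Figure D2:**
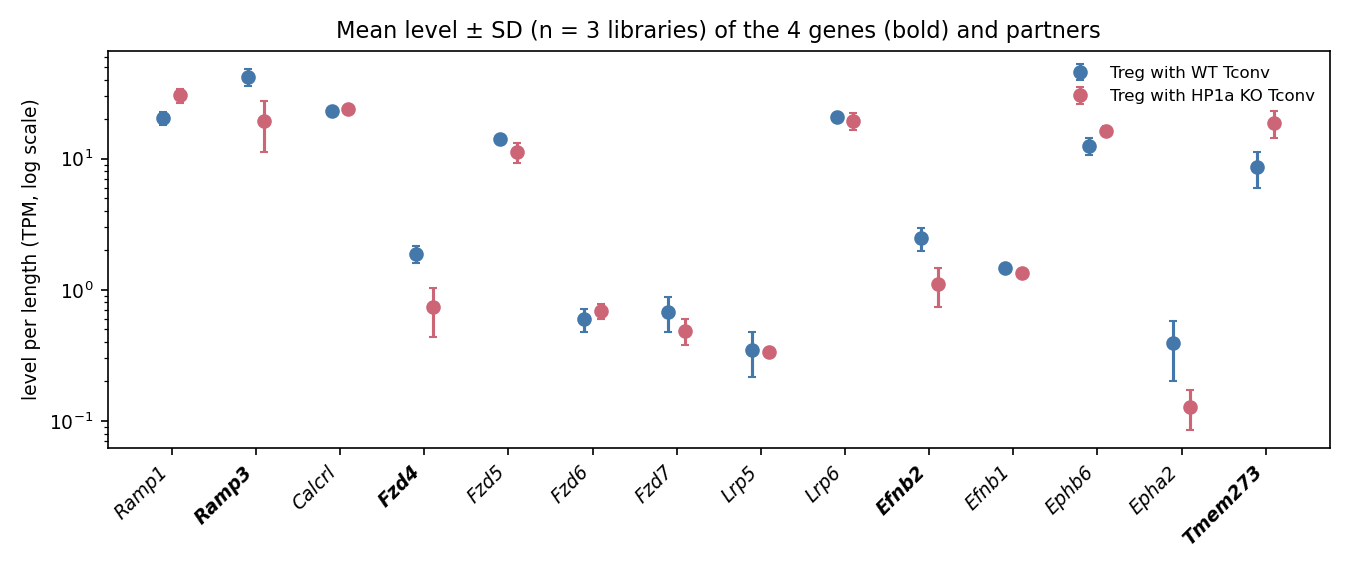
Mean level per exon length (TPM, log axis) ± SD of 3 libraries for the 4 genes, in bold, and for partners, in Treg with WT Tconv (blue) and Treg with HP1a KO Tconv (red). Ramp3 goes from 42.1 to 19.3 TPM beside a level Calcrl and Tmem273 from 8.57 to 18.7 TPM. Fzd4 goes from 1.88 to 0.735 TPM and Efnb2 from 2.47 to 1.11 TPM.

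To see whether the 4 genes moved together from library to library, each was taken as its deviation from its own group mean in log2 CPM. These correlations describe 6 libraries that share depth and composition, and carry no test. Ramp3 and Fzd4 deviated alike, with r = 0.96, and in 5 libraries without replicate 3 of Treg with HP1a KO Tconv r was 0.67. That library was 0.81 below its group mean for Ramp3 and 0.71 below for Fzd4, but only 0.01 above it for Efnb2. A correlation with Ramp3 as high as that of Fzd4 was found for 100 of 18320 other genes, or 0.546%. Efnb2 did not follow them, with r = 0.10 against Ramp3 and r = -0.05 against Fzd4, and its lowest library was replicate 2 of Treg with HP1a KO Tconv. Tmem273 had r = -0.44 against Ramp3, r = -0.60 against Fzd4 and r = 0.17 against Efnb2. It was not opposite in every library, since in replicate 1 beside HP1a KO Tconv it deviated by 0.26, Ramp3 by 0.42 and Fzd4 by 0.21. How many other genes had such r was not counted. Over all 6 libraries the ratio of Ramp3 to Fzd4 in CPM stayed between 4.23 and 6.10, whereas that of Ramp3 to Efnb2 ran from 1.82 to 6.05. These ratios also hold the group differences for which the genes were selected.

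**Figure D3:**
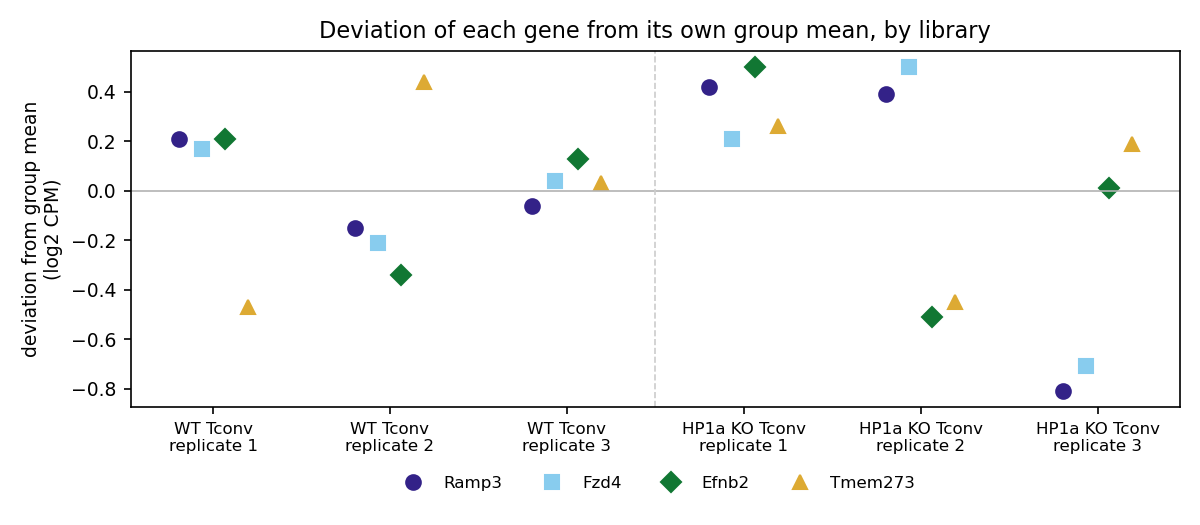
Deviation of each gene from its own group mean (log2 CPM) in each of the 6 libraries, with a marker shape and colour per gene. Ramp3 and Fzd4 are both lowest, at -0.81 and -0.71, in replicate 3 beside HP1a KO Tconv, where Efnb2 is at 0.01 and Tmem273 at 0.19.

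The genes whose log2 CPM followed each member most closely over the 6 libraries were then listed by Pearson's r, which includes the group difference. For Ramp3 they were Ergic2 with r = 0.999, Gm37347 with r = 0.997 and Dyrk1a with r = 0.994, and for Fzd4 they were Gm6627, Gna13 and Thap12 with r of 0.995 to 0.996. For Efnb2 they were Gm37447 with r = 0.995, Arl15 with r = 0.992 and Zbtb1 with r = 0.992. Tmem273 was followed by Tshz3 with r = 0.989, Lrrc75b with r = 0.979 and Gm37068 with r = 0.978. All 12 had smaller group differences than the member they followed, with log2 fold changes from -0.63 to -0.11 for those that followed the 3 lower genes and from 0.69 to 0.97 for those that followed Tmem273. The number of genes with r over 0.95 was 146 for Ramp3, 181 for Fzd4, 84 for Efnb2 and 43 for Tmem273.

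Reads of neighbouring and overlapping genes were read next, since they can be assigned to a member. Of the transcripts annotated within Efnb2, 3 single-exon ones on its own strand in its introns had lower mean levels beside HP1a KO Tconv, with log2 fold changes of -0.56 for E230020D15Rik, -1.07 for Gm45074 and -0.60 for Gm45073 and adjusted p of 0.448, 0.293 and 0.342 in the edgeR quasi-likelihood test. Gm45074 had 25, 25 and 46 counts beside WT Tconv and 13, 12 and 15 beside HP1a KO Tconv, while E230020D15Rik had 86, 80 and 155 against 67, 85 and 42, so that its groups overlapped. An antisense transcript, Gm45075, shares 9.69% of the exon bases of Efnb2, and Gm11978 shares 7.27% of those of Ramp3. Neither is a row of the counts table, the library kit keeps strand, and the strand setting used in counting is not given in the sources used here. Of the neighbours, Tmem135 beside Fzd4 had a log2 fold change of -0.27 (adjusted p = 0.230), Arglu1 beside Efnb2 -0.21 (adjusted p = 0.323) and Ccm2 beside Ramp3 0.22 (adjusted p = 0.246). The nearest tested gene to Ramp3, Gm11980, 8349 bases away, had -1.93 (adjusted p = 0.220) at a mean level of 0.140 CPM. Tmem273 had no other tested gene within 100 kb, against 6 for Ramp3, 5 for Efnb2 and 1 for Fzd4. Of these, 2, 3 and 1 had an unadjusted p under 0.05 in edgeR, as did 14.5% of all genes tested. Their log2 fold changes ran from -1.93 to 0.91 near Ramp3 and from -1.07 to 0.31 near Efnb2. The 3 transcripts in the introns of Efnb2 are among its 5, and reads from those introns can be assigned to them. Gm45074 and Gm45073, with unadjusted p of 0.0301 and 0.0488 in edgeR, may thus not be independent of the selected member. Their calls and the -1.07 of Gm45074 are not read as a result about the neighbourhood. The members were selected for their differences and the other neighbours were not, so the sizes are not compared.

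Turning to the partners of Ramp3, 12 genes of the RAMP and calcitonin family other than Ramp3 were listed, of which 11 were in the table and 6 passed the filter. Of these 6, 2 were higher and 0 were lower at an unadjusted p under 0.05 in edgeR, or 33.3% against 14.5% of all genes tested. That count of 2 became 2 to 4 when 1 library was left out. In edgeR 0 had an adjusted p under 0.05, and the median log2 fold change was 0.09, against -0.01 over all genes tested. Ramp1, which gives Calcrl its affinity for CGRP, was at 15.5, 15.8 and 19.7 CPM beside WT Tconv and at 23.9, 27.4 and 22.7 CPM beside HP1a KO Tconv. All 3 libraries beside HP1a KO Tconv were the higher ones, opposite to Ramp3, by 0.54 on the log2 scale (SE 0.120). Its adjusted p was 0.209 in the edgeR quasi-likelihood test and 0.00801 in DESeq2, both with Benjamini-Hochberg adjustment. Calcrl itself, the receptor that both RAMPs escort, was at 28.1 CPM ± 1.03 and 28.3 CPM ± 1.17 (SD, n = 3 each), which differed by 0.01 on the log2 scale (SE 0.0720, edgeR adjusted p = 0.960).

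Per length, the ratio of Ramp3 to Ramp1 in TPM was 2.60, 1.99 and 1.69 in the libraries beside WT Tconv and 0.820, 0.698 and 0.365 in those beside HP1a KO Tconv. Ramp3 was thus the more abundant of the pair in all 3 libraries of the first group and Ramp1 in all 3 of the second. The ratio of Ramp3 to Calcrl went from 1.64 to 2.03 in the first group to 0.410 to 1.05 in the second. Since Ramp3 was selected for its lower level beside HP1a KO Tconv, a fall of both ratios was largely fixed by that choice. Ramp2, the other partner for adrenomedullin, was given 350, 72 and 317 counts beside WT Tconv and 0, 0 and 703 beside HP1a KO Tconv. Its annotated exons share 1133 bases, 28.5% of their length, with Vps25 on the same strand, so these counts are uncertain. Calcr, the calcitonin receptor, had at most 3 counts in a library. Of the ligand genes, Adm, for adrenomedullin, had 14 to 81 counts and Calca, for calcitonin and CGRP, had 15 to 129. Adm was at 0.629 CPM ± 0.0730 and 0.357 CPM ± 0.283 (log2 fold change -0.81, edgeR adjusted p = 0.518). Calca was at 1.07 CPM ± 0.244 and 0.493 CPM ± 0.360 (SD, n = 3 each, log2 fold change -1.11, edgeR adjusted p = 0.403). Crcp, a component of CGRP receptor signalling, was at 29.2 CPM ± 0.407 and 34.1 CPM ± 0.859, with a log2 fold change of 0.22.

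**Figure D4:**
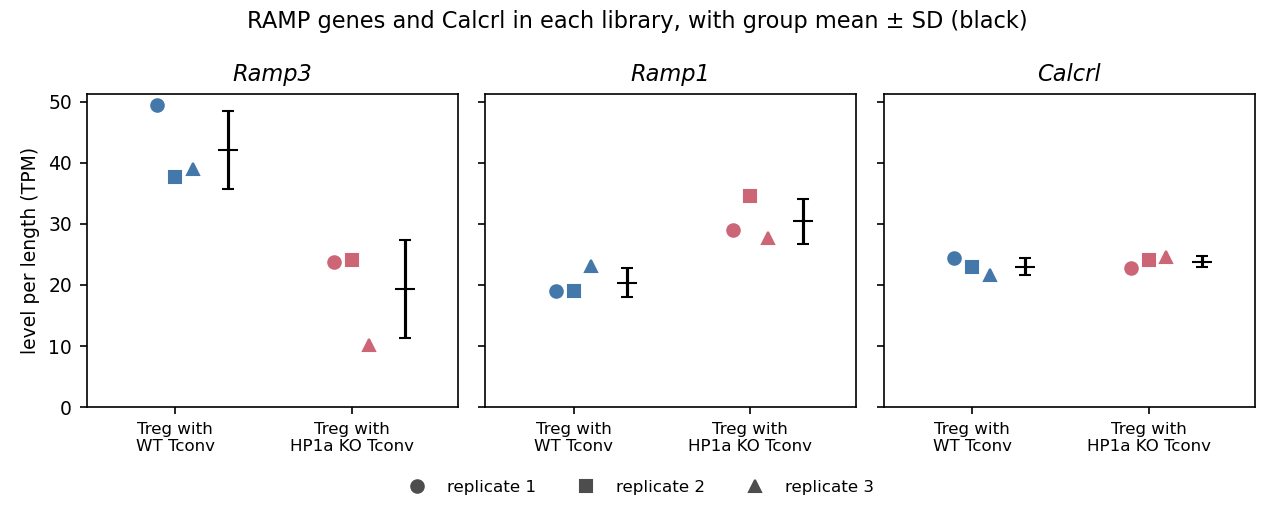
Level per exon length (TPM, shared linear axis from 0) of Ramp3, Ramp1 and Calcrl in each library, with group mean ± SD of 3 libraries in black. Ramp3, which was selected for its group difference, lies above Ramp1 in each library of Treg with WT Tconv. It lies below Ramp1 in each library of Treg with HP1a KO Tconv, while Calcrl stays near 23.0 and 23.8 TPM.

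For Fzd4, 83 genes of Wnt and Frizzled signalling other than Fzd4 were listed, of which 67 were in the table and 39 passed the filter. At an unadjusted p under 0.05 in edgeR 4 of these were higher and 1 was lower, or 12.8% against 14.5% of all genes tested. That count of 5 became 1 to 9 when 1 library was left out and was 2 in DESeq2. With adjustment 0 passed in edgeR or DESeq2, and the median log2 fold change was -0.01, as over all genes tested. The log2 fold changes in the list ran from -0.88 to 0.73, beside -1.40 for Fzd4, which was selected for its size. Averaged over the 6 libraries Fzd5 was the most abundant Frizzled gene per length, at 12.7 TPM, followed by Fzd4 at 1.31 TPM and Fzd6 at 0.642 TPM. Fzd5 was at 25.1, 22.2 and 26.0 CPM beside WT Tconv and 20.2, 21.0 and 15.3 CPM beside HP1a KO Tconv. Like Fzd4 it was lower in all 3 libraries beside HP1a KO Tconv and lowest in replicate 3, by -0.38 on the log2 scale (SE 0.131, edgeR adjusted p = 0.263). Per length Fzd5 exceeded Fzd4 by 6.88 to 7.94 times in the libraries beside WT Tconv and by 12.8 to 21.8 times in those beside HP1a KO Tconv. The larger ratio in the second group follows largely from the lower level for which Fzd4 was selected.

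The other receptors and co-receptors were level or scarce. Fzd6 and Fzd7 had 1.02 and 0.993 CPM beside WT Tconv with log2 fold changes of 0.16 and -0.52 and overlapping groups. Lrp6, the abundant co-receptor, was at 79.5 CPM ± 5.99 and 72.8 CPM ± 12.0 (SD, n = 3 each) and Lrp5 at 0.847 CPM ± 0.331 and 0.791 CPM ± 0.0183. For Norrin signalling, Tspan12 had at most 6 counts in a library, and Ndp, which encodes Norrin, is not a row of the table. Of the nuclear side of the pathway, Tcf7 and Lef1 had log2 fold changes of -0.08 and 0.02. Axin2, a transcript induced by beta-catenin, was at 42.4 CPM ± 1.38 and 50.8 CPM ± 5.96 (SD, n = 3 each). Its groups did not overlap, with a log2 difference of 0.26 and 0.268 as adjusted p in edgeR. Of 7 Wnt targets listed 4 passed the filter, with 2 log2 fold changes above 0 and 2 below. Of these 4, 1 was higher and 0 were lower at an unadjusted p under 0.05 in edgeR (25.0% against 14.5% of all genes). Gsk3a and Gsk3b, kinases that mark beta-catenin for decay, had log2 fold changes of opposite sign, 0.16 and -0.27.

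For Efnb2, 46 genes of Eph, ephrin and Notch signalling other than Efnb2 were listed, of which 45 were in the table and 29 passed the filter. At an unadjusted p under 0.05 in edgeR 4 were higher and 5 were lower, or 31.0% against 14.5% of all genes tested. That count of 9 became 5 to 12 when 1 library was left out. After adjustment there were 0 calls in edgeR or DESeq2, and the median log2 fold change was 0.00. The sister ligand Efnb1 was at 1.46 CPM ± 0.0494 and 1.30 CPM ± 0.0547 (SD, n = 3 each), and so differed by -0.16 on the log2 scale. Per length the ratio of Efnb2 to Efnb1 was 1.88, 1.36 and 1.79 in the libraries beside WT Tconv and 1.16, 0.562 and 0.765 in those beside HP1a KO Tconv. Efnb2 was selected for its lower level there, so the lower ratio largely restates that choice. Efna1, an ephrin of the A class, had at most 5 counts in a library.

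Of the receptors that ephrin-B2 binds, Ephb4 had at most 3 counts, Ephb2 at most 4 and Epha4 at most 2 in any library. Ephb3 had at most 8 counts, and Ephb1 had at most 17 counts and was at 0 in 4 of the 6 libraries, 1 of them beside WT Tconv. The most abundant Eph receptor gene per length was Ephb6, for an Eph receptor without kinase activity that T cells express, which was at 23.5 CPM ± 3.03 and 29.7 CPM ± 2.66 (SD, n = 3 each). Its groups did not overlap, the log2 fold change was 0.34, and the edgeR adjusted p was 0.249. Epha2 had the lowest log2 fold change of the list, -1.65, on 8 to 85 counts. Of the proteins that bind the tail of B-class ephrins, 8 of 8 listed genes passed the filter, 3 were higher and 1 was lower at an unadjusted p under 0.05 (50.0% against 14.5% of all genes), and Gipc1, a PDZ adaptor, had 13.3 CPM ± 0.124 and 17.0 CPM ± 1.53.

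Efnb2 is a known target of Notch signalling, and of 17 Notch genes listed 14 passed the filter, with 0 higher and 3 lower at an unadjusted p under 0.05 (21.4% against 14.5% of all genes). Notch1, the receptor, was at 382 CPM ± 22.3 and 393 CPM ± 8.85 (SD, n = 3 each), a difference of 0.04 on the log2 scale. Rbpj, its DNA-binding partner, was at 128 CPM ± 10.1 and 104 CPM ± 9.18, with a log2 fold change of -0.30 and groups that did not overlap. The target Hes1 rested on 7 to 75 counts with a log2 fold change of -1.02 and overlapping groups, and Dtx1, another target, was at 140 CPM ± 22.8 and 189 CPM ± 41.1, a log2 fold change of 0.43. Of the other listed targets, Hey1 was at 27.0 CPM ± 2.42 and 18.9 CPM ± 4.90 (SD, n = 3 each), with groups that did not overlap, a log2 fold change of -0.52 and an edgeR adjusted p of 0.281. Nrarp was at 7.78 CPM ± 1.37 and 5.67 CPM ± 0.791 (log2 fold change -0.46, edgeR adjusted p = 0.287), and Hes5 and Hey2, on 13 to 48 counts, had log2 fold changes of -0.50 and 0.26. The fold changes of Hey1, Nrarp, Hes1 and Hes5 thus had the sign of that of Efnb2, and those of Dtx1 and Hey2 the other sign, and none had an adjusted p under 0.05.

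Tmem273 shares only a naming class with the genes of its list, which were listed by the name Tmem alone. The list includes names ending in ps or os, for pseudogenes and opposite-strand transcripts. Of 221 other Tmem-named genes 166 passed the filter, 12 were higher and 10 were lower at an unadjusted p under 0.05 in edgeR (13.3% against 14.5% of all genes), 0 passed with adjustment, and the median log2 fold change was 0.05. DESeq2 gave an adjusted p under 0.05 to 3 of them, Tmem126b, Tmem158 and Tmem229b, and to 4.35% of all genes it adjusted. Tmem158 was at 11.8 CPM ± 2.27 and 6.69 CPM ± 2.52 (SD, n = 3 each), a difference of -0.81 on the log2 scale with groups that did not overlap. By edgeR Tmem229b was at 67.7 CPM ± 2.44 and 82.1 CPM ± 3.03 (SD, n = 3 each), Tmem126b at 11.3 CPM ± 0.895 and 14.6 CPM ± 0.373, and Tmem263 at 39.2 CPM ± 1.63 and 32.8 CPM ± 1.09, with log2 fold changes of 0.28, 0.37 and -0.26. Only Tmem171, with 20 to 56 counts, and Tmem40, with overlapping groups, exceeded 2-fold in this class, both lower beside HP1a KO Tconv. The highest log2 fold change in the class was 0.96, of Tmem108 on 3 to 25 counts, beside 1.09 for Tmem273, which was selected for its size.

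**Figure D5:**
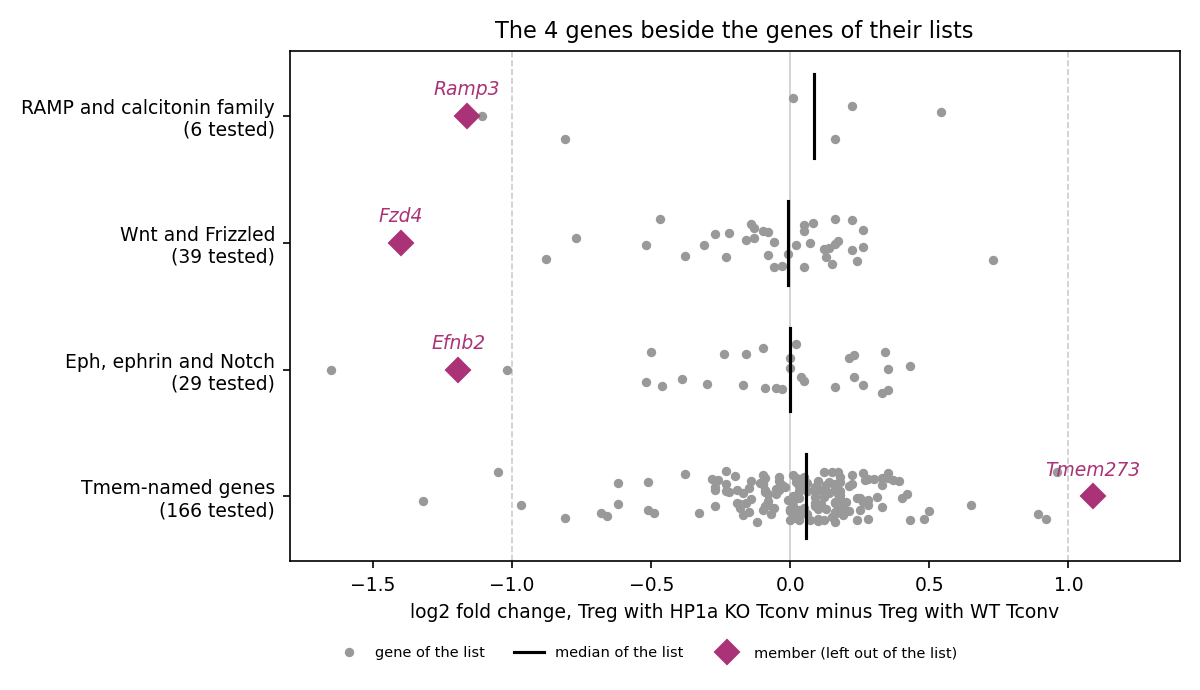
Log2 fold change (Treg with HP1a KO Tconv minus Treg with WT Tconv) of each tested gene of the 4 lists (grey points, spread vertically for legibility), the list medians (black bars) and the 4 members (diamonds), with dashed lines at 2-fold. The list medians are 0.09, -0.01, 0.00 and 0.05, and the members lie at -1.16, -1.40, -1.19 and 1.09.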

How the data were processed

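The authors aligned stranded total RNA reads with STAR to GRCm39 and estimated counts per gene with Salmon. The deposited values are expected (estimated) counts, held as whole numbers and not normalized, for 29199 genes in 6 libraries. Salmon splits reads that fit several genes, so the counts of overlapping genes depend on its model.

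Groups were compared with the quasi-likelihood test of edgeR 4.0.16 in R 4.3.3 (TMM, filterByExpr, group as the sole term), which was tested on simulated data, and, as alternatives, with DESeq2 1.42.0, limma-voom of limma 3.58.1, other scalings and filters, a replicate block and fits without 1 library each. P-values were adjusted over all genes tested by Benjamini-Hochberg. Correlations used log2 CPM with a prior count of 2. Positions and exon lengths came from GENCODE M39, which matched 28854 identifiers.

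The members and lists were chosen with earlier results of these data known. Named were the 4 members, 24 partners, the 3 genes of smallest edgeR p per list and the 3 genes most like each member. Other genes named (Tmem158, Tmem171, Tmem40, Tmem253, Tmem108, Gsk3b, Hey1, Nrarp, Hes5, Hey2, Ephb1, Ephb3, the neighbours and the overlapping genes) were chosen after their values were seen. Outliers were not tested in groups of 3.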

Additional observations from a re-analysis of the deposited data

How the results depend on the processing

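Each of the 4 genes kept its direction in all 14 alternatives. Leaving out 1 library at a time, the log2 fold change ranged from -1.34 to -0.86 for Ramp3, -1.66 to -1.12 for Fzd4, -1.46 to -0.97 for Efnb2 and 0.90 to 1.35 for Tmem273. It came short of 2-fold for Ramp3 without replicate 3 of Treg with HP1a KO Tconv (-0.86), for Efnb2 without replicate 2 of that group (-0.97), and for Tmem273 without replicate 1 of Treg with WT Tconv (0.90) or replicate 1 of Treg with HP1a KO Tconv (0.97). Over the 8 other settings the ranges were -1.25 to -1.12, -1.47 to -1.36, -1.24 to -1.16 and 1.08 to 1.13 in the same order.

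The number of genes with an adjusted p under 0.05 was 0 in edgeR, 526 in DESeq2, 38 in edgeR without a filter, 1 with upper quartile scaling and 0 to 2 without 1 library, and the cause was not tested. Of the lists, the number with an unadjusted p under 0.05 for Wnt and Frizzled genes was 5, and 3 without a filter, 2 in DESeq2 and 1 to 9 without 1 library. It was 2 for the RAMP and calcitonin family and 9 for Eph, ephrin and Notch genes, and 2 to 4 and 5 to 12 without 1 library. The share of all genes at that threshold is given only for the main fit, at 14.5%. List counts under other settings are therefore not set against a background. With the replicate number as a block, 1 gene had an adjusted p under 0.05, 2 Wnt and Frizzled genes had an unadjusted p under 0.05, and the members had -1.25 for Ramp3, -1.47 for Fzd4, -1.23 for Efnb2 and 1.10 for Tmem273. Libraries with the same number had correlated deviations of -0.04, 0.18 and 0.12 and not every library matched its own number best, so the replicates share a number and were not treated as paired. Depth limits the genes with few counts, such as Epha2, Hes1, Adm and Calca, more than the members.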
